A study of Mus musculus with 9 samples.

Results

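The genes described here are 35 genes that mark the oligodendrocyte lineage, out of the 54532 gene IDs counted in mouse striatum. They were taken by symbol from a list that was chosen with earlier results of these data known. The list holds 26 genes of myelin and mature oligodendrocytes, from Mbp to Hapln2, and 9 genes of oligodendrocyte precursor cells and of newly formed, premyelinating oligodendrocytes. All 35 symbols matched 1 gene ID each, and all 35 passed the filter on low counts that left 17821 genes for testing. The lowest count of any of them in any library was 48, for C1ql1. Polyadenylated RNA was sequenced from the striatum of 3 STING KO libraries, 3 cGAS KO libraries and 3 wild-type (WT) libraries. The STING KO and cGAS KO mice are labelled as deficient for the named gene after CRISPR-Cas9 editing, and all 3 groups are labelled C57BL/6J. Ischemic stroke had preceded sampling in every group, per the series design, so each comparison is between genotypes after stroke, and uninjured brains were not analysed here. Neither the interval since stroke, nor the hemisphere sampled, nor age, nor the site of editing is stated in the sources at hand. Whether replicates are separate animals is likewise unstated, and p-values then reflect how much these libraries vary, which may be technical.

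Oligodendrocytes wrap axons of the central nervous system in myelin, a stack of membrane that is rich in a small set of structural proteins and in galactolipids. They arise from precursor cells that carry the PDGF receptor alpha and the NG2 proteoglycan, through a short premyelinating stage, under the transcription factors OLIG2, SOX10 and MYRF. In the striatum most of them lie in the fibre bundles that run through the nucleus, and they are sensitive to loss of blood flow. The enzyme cGAS is activated by cytosolic DNA, and its product cGAMP switches on STING, which leads to interferon production.

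Library totals ranged from 14129021 to 21286775 counts. STING KO replicate 2, cGAS KO replicate 2 and WT replicate 3 stood apart from the others, having only 2280 to 4723 genes at 1 to 9 counts, where the remaining 6 libraries had 7096 to 7927. These 3 are named low-complexity libraries (libraries of low complexity), a division made with the data known, and values are given both with and without them. The targeted transcripts were low in every group. Sting1 was at 1.04 to 2.17 CPM (counts scaled to a library size of 1e+06) in the STING KO libraries and 1.34 to 4.06 CPM in the WT libraries, and these ranges overlapped, so its level does not check the STING KO label. Cgas was at 0.262 to 1.10 CPM in the cGAS KO libraries and 1.40 to 3.18 CPM in the WT libraries, which did not overlap. Summed levels of 8 markers of striatal spiny neurons were 5558 to 7746 CPM in 8 libraries and 3160.3 CPM in WT replicate 3, where the sum of 7 cortical glutamatergic markers was highest, at 1228 CPM.

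The 35 genes spanned a wide range of levels. Per kilobase of annotated exon, Mbp, which compacts the cytoplasmic face of myelin, had the highest level, at 418 ± 166 CPM per kb (SD over 9 libraries). Mobp, another basic protein of compact myelin, followed at 269 ± 85.9 CPM per kb, Cldn11, the claudin of the tight junctions between myelin layers, at 204 ± 55.8 CPM per kb, Mal, a membrane proteolipid, at 192 ± 56.7 CPM per kb, and Cnp, a phosphodiesterase of uncompacted myelin, at 154 ± 50.9 CPM per kb. Mobp was above Cldn11, Mal and Cnp in each of the 9 libraries, while the order of Cldn11 and Mal changed between libraries. Among the transcription factors Olig1 led at 74.8 ± 22.8 CPM per kb and Sox10 was at 22.5 ± 3.75 CPM per kb. Of the 9 precursor and premyelinating genes, Bcas1 had 46.6 ± 18.7 CPM per kb, while the surface proteoglycans Vcan and Cspg4 (NG2) had the lowest levels of all 35, at 4.11 ± 1.07 and 3.08 ± 0.737 CPM per kb.

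**Figure D1:**
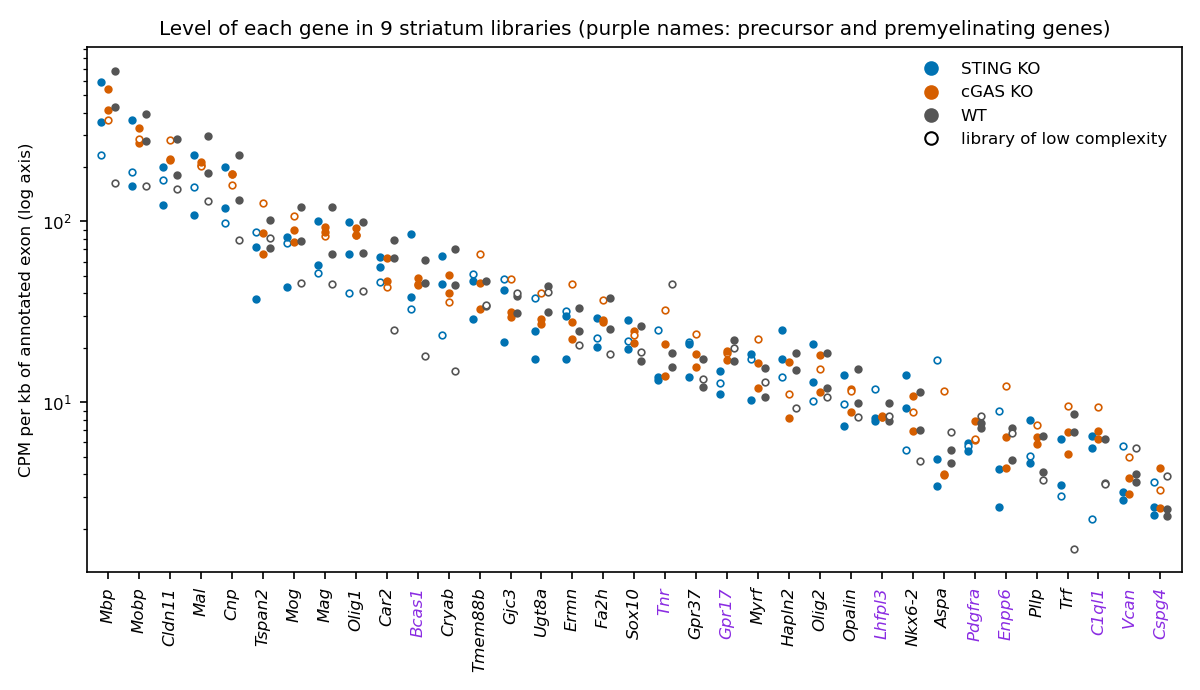
Level of each of the 35 genes in CPM per kb of annotated exon (log axis), 1 point per library, STING KO in blue, cGAS KO in orange and WT in grey, with open points for the libraries of low complexity. Genes are ordered by their mean over 9 libraries, from Mbp at 418 to Cspg4 at 3.08 CPM per kb, and points of the 3 genotypes are mixed for most genes.

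Promoter windows of 4 genes are shown as examples. Mobp, Mag and Cnp are sheath genes with their highest STING KO value in replicate 3 and their highest WT value in replicate 1. Pdgfra had its lowest STING KO value and its highest WT value in replicate 3. Other genes had these patterns too. Each window is the 250 bases before the RefSeq start of the gene on GRCm38.p6, read 5' to 3' on the gene's strand. RefSeq promoters were at hand for 24 of the 35 genes. Mobp lies at chr9:120149492-120149741 on the plus strand, Mag at chr7:30914864-30915113 on the minus strand, Cnp at chr11:100574689-100574938 on the plus strand and Pdgfra at chr5:75152001-75152250 on the plus strand. Capitals mark ACAAAG, a core known for SOX factors, or CTTTGT, which is its reverse complement, and also CTGGCAC, a word known for MYRF.
Mobp: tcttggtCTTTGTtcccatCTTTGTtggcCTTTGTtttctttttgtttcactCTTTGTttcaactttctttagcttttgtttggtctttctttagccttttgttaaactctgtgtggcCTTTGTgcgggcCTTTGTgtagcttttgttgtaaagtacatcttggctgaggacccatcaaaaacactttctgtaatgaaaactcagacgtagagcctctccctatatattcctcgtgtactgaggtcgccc
Mag: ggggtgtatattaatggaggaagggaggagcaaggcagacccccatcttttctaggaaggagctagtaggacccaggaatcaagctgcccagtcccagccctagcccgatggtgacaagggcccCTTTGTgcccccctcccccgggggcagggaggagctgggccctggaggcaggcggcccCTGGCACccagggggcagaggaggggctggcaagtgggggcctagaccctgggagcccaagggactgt
Cnp: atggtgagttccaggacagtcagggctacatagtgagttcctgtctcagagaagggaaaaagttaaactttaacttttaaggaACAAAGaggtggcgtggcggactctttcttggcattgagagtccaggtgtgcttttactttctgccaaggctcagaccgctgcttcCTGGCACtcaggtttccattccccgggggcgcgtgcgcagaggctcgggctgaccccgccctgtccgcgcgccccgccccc
Pdgfra: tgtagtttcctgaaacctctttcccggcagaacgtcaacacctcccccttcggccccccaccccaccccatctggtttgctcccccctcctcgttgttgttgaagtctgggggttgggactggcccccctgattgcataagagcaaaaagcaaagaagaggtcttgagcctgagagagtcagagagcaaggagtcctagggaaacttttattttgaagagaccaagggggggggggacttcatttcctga
The Mobp window held the SOX word 6 times, all as the reverse complement and all between 120 and 243 bases before the start. Mag held it once, 126 bases before the start, and the MYRF word once, 68 bases before the start. Cnp held them 167 and 81 bases before the start. The Pdgfra window held no match to any of the 5 words searched on both strands, which were these together with the ACAATG word, the CAGCTG word and the CATATG word. Mog, Mal, Cldn11 and Pllp had the pattern of the sheath genes shown, and their windows held none of these words either. Tnr and Cspg4 had the pattern of Pdgfra. The Tnr window held ACAAAG, and the Cspg4 window held none of these words.

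Over the 24 genes with a window, CTGGCAC was present in 3 (Cnp, Hapln2 and Mag), against 4.14% of all 27025 promoters of this length. ACAAAG was present in 5 (Cnp, Mag, Mobp, Opalin and Tnr), against 16.5% of all promoters, and ACAATG, the other SOX core, in 5 (Enpp6, Ermn, Hapln2, Olig2 and Tmem88b), against 11%. The E-box CAGCTG was present in 3 (Aspa, Hapln2 and Lhfpl3), against 12.8%, and the E-box CATATG in 1 (Tspan2), against 3.47%. These are matches of letters in a window and say nothing of binding.

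As a sum, the 26 oligodendrocyte genes varied widely within STING KO and within WT and little within cGAS KO. Their summed level was 6665, 6667 and 11875 CPM in STING KO (mean 8402 ± 3007, SD, n = 3), 10323, 9707 and 9764 CPM in cGAS KO (9931 ± 340.3, n = 3) and 13646, 8893 and 5206 CPM in WT (9248 ± 4231, n = 3). The highest and the lowest library were both WT, and the STING KO and cGAS KO sums lay between them. Mbp took 39.0 ± 8.23% of this sum in STING KO, 37.2 ± 6.45% in cGAS KO and 36.5 ± 8.56% in WT. Without Mbp the other 25 genes summed to 3652, 4686 and 6860.5 CPM in STING KO, to 5757, 6642 and 6273 CPM in cGAS KO and to 7887, 5280.4 and 3818 CPM in WT, so the spread did not rest on Mbp alone. In bulk tissue, fewer oligodendrocytes in a sample and less RNA per cell cannot be told apart.

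Within groups the myelin genes moved as a block. All 26 oligodendrocyte genes were higher in STING KO replicate 3 than in STING KO replicate 1, against 46.9% of all genes tested, and neither library was of low complexity. All 26 were also higher in WT replicate 1 than in WT replicate 2, against 50.7% of all genes tested, and 24 of 26 had their highest WT value in replicate 1, against 36.4% of all genes. In cGAS KO, 13 of 26 were higher in replicate 1 than in replicate 3, against 50.8% of all genes, so the 26 genes showed no such block there. The 9 precursor and premyelinating genes did not take part in the STING KO and WT blocks as a group: 5 of 9 were higher in STING KO replicate 3 than in replicate 1, and 6 of 9 were higher in WT replicate 1 than in WT replicate 2. Within cGAS KO most of the 9 moved together. There 1 of 9 was higher in replicate 1 than in replicate 3, against the same 50.8% of all genes. Choroid plexus markers also stood high in WT replicate 1 (summed level 2728 CPM, against 31.7 and 116 CPM in the other WT libraries), and their part in the WT values was not tested. The choroid plexus also expresses Trf and Car2. Cortical glutamatergic markers summed to 107, 476 and 1228 CPM in WT, a rise where the oligodendrocyte sum fell. In STING KO they summed to 668, 330 and 521 CPM and in cGAS KO to 384, 559 and 143 CPM. Their part in the oligodendrocyte values was not tested either.

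**Figure D2:**
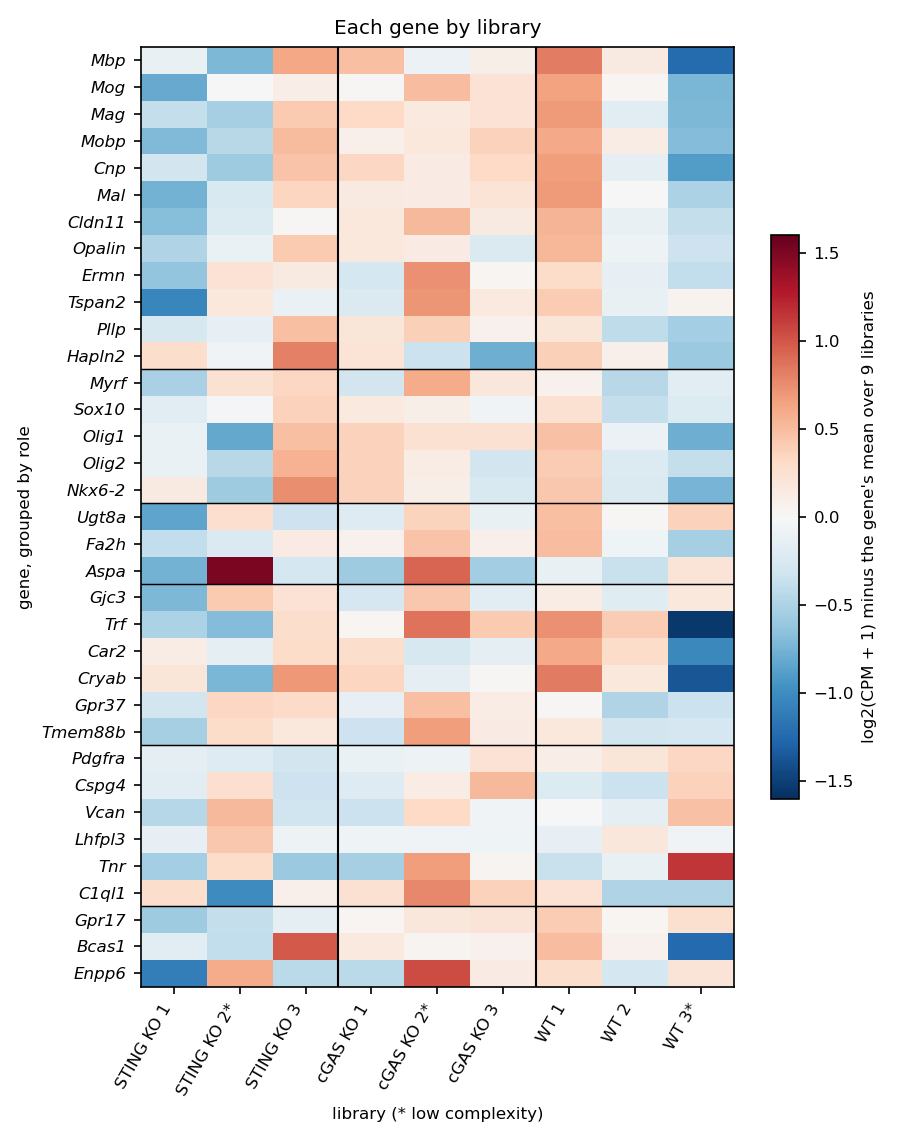
Each gene by library, as log2(CPM + 1) minus the gene's mean over the 9 libraries, with genes in rows by role (myelin sheath, transcription factors, lipid and acetate metabolism, other oligodendrocyte proteins, precursor genes, premyelinating genes) and libraries in columns, an asterisk marking low complexity. STING KO replicate 3 and WT replicate 1 are red in most oligodendrocyte rows, and WT replicate 3 is the lowest WT library in 18 of 26.

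Of the 12 structural proteins of the sheath, the 2 with the highest level per kb were Mbp and Mobp. Mbp was at 3014, 1981 and 5014 CPM in STING KO, at 4566, 3065 and 3491 CPM in cGAS KO and at 5758, 3613 and 1388 CPM in WT. Mobp was at 1071, 1286 and 2478 CPM in STING KO, at 1851, 1966 and 2256 CPM in cGAS KO and at 2673, 1895 and 1078 CPM in WT. For both genes the 3 WT libraries covered more than the range of the cGAS KO libraries, and the highest WT library was 4.15 times the lowest for Mbp and 2.48 times for Mobp. Mag, the glycoprotein that faces the axon, Cnp and Mal had cGAS KO libraries within 1.13, 1.15 and 1.06 times of each other, while their WT libraries spread 2.66, 2.97 and 2.30 times. Mog, a glycoprotein of the outermost lamella, Opalin, a sialylated glycoprotein of the loops, Ermn, a cytoskeletal protein, and Tspan2, a tetraspanin, spread 1.43 to 2.61 times within WT.

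Cldn11 was the sheath gene whose STING KO and cGAS KO libraries did not overlap. It was at 229, 316 and 375 CPM in STING KO, at 415, 529 and 408 CPM in cGAS KO and at 536, 338 and 281 CPM in WT. Every STING KO library was below every cGAS KO library, while the WT libraries ran through both ranges. Hapln2, a link protein of the perinodal matrix, was at 41.2, 32.6 and 59.7 CPM in STING KO, at 39.5, 26.4 and 19.3 CPM in cGAS KO and at 44.4, 36.0 and 22.02 CPM in WT, and all groups overlapped. Pllp, a small MARVEL-domain protein of myelin, was at 9.62, 10.5 and 16.7 CPM in STING KO, at 13.4, 15.5 and 12.3 CPM in cGAS KO and at 13.5, 8.58 and 7.69 CPM in WT. Of the annotated exons of Pllp, 54.2% lie opposite the antisense gene Gm45767, and since the strand setting of the counting is not given, Pllp counts are uncertain.

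Of the 5 transcription factors of the lineage, 3 are given by library. Olig1, a bHLH factor, was at 143, 86.7 and 215 CPM in STING KO, at 199, 183 and 182 CPM in cGAS KO and at 213, 144 and 89.2 CPM in WT. Sox10, the HMG-box factor that drives myelin genes together with MYRF, was at 60.4, 66.7 and 87.5 CPM in STING KO, at 75.8, 72.3 and 64.8 CPM in cGAS KO and at 80.2, 51.6 and 57.9 CPM in WT. Myrf, the membrane-bound factor required for myelination, was at 87.6, 149 and 159 CPM in STING KO, at 102, 191 and 142 CPM in cGAS KO and at 132, 91.6 and 111 CPM in WT. All 3 genes overlapped between all groups. Olig2 and Nkx6-2, a homeodomain factor of mature oligodendrocytes, had 9-library ranges of 2.05 and 2.996 times. Olig1 and Olig2 are neighbours on chromosome 16, 41094 bases apart. All 5 transcription factors had their highest STING KO value in replicate 3 and their highest WT value in replicate 1.

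The 3 genes of myelin lipids and acetate metabolism differed among themselves in where the libraries of low complexity fell. Ugt8a, which makes the galactolipids of myelin, was at 79.0, 172 and 113 CPM in STING KO, at 123, 182 and 130.3 CPM in cGAS KO and at 198, 143 and 184 CPM in WT. Aspa, which frees acetate from N-acetylaspartate, was at 20.5, 102 and 29.0 CPM in STING KO, at 23.5, 68.7 and 23.8 CPM in cGAS KO and at 32.6, 27.6 and 41.0 CPM in WT. Fa2h, which hydroxylates the fatty acids of galactolipids, was at 61.1, 68.1 and 87.8 CPM in STING KO, at 84.0, 110.5 and 85.4 CPM in cGAS KO and at 113, 76.4 and 55.3 CPM in WT. Aspa was highest in the library of low complexity in every group, and all 3 such libraries were above all 6 others. Fa2h showed no such split.

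Among the other oligodendrocyte proteins, Car2, a carbonic anhydrase, was at 135, 112 and 153 CPM in STING KO, at 152, 105 and 113 CPM in cGAS KO and at 191, 153 and 60.6 CPM in WT. Cryab, a small heat shock protein and chaperone, was at 66.9, 34.7 and 94.8 CPM in STING KO, at 74.6, 52.7 and 59.2 CPM in cGAS KO and at 104, 65.9 and 21.95 CPM in WT. Trf, the iron carrier transferrin, was at 11.5, 10.1 and 20.8 CPM in STING KO, at 17.3, 31.6 and 22.8 CPM in cGAS KO and at 28.8, 22.8 and 5.15 CPM in WT. These 3 genes had their lowest WT value in the library of low complexity. Of the annotated exons of Trf, 63.5% are shared on the same strand with Gm20425, which had 0 counts. How reads of shared exons were counted is not stated, so Trf counts are uncertain. Gpr37, an orphan receptor of oligodendrocytes, was at 84.0, 130.4 and 128 CPM in STING KO, at 94.8, 146 and 112 CPM in cGAS KO and at 105, 74.0 and 81.3 CPM in WT, with the groups overlapping. Gjc3, a connexin of glial cells, and Tmem88b, a membrane protein, had 9-library ranges of 2.24 and 2.31 times.

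The precursor and premyelinating genes summed to 566, 795 and 763 CPM in STING KO, to 653, 974 and 804 CPM in cGAS KO and to 789, 725 and 1038 CPM in WT. Pdgfra (chromosome 5, 75152292 to 75198215, plus strand, GRCm38), the growth factor receptor that defines precursor cells, was at 60.04, 57.7 and 54.2 CPM in STING KO, at 61.9, 63.1 and 78.8 CPM in cGAS KO and at 71.97, 76.8 and 84.1 CPM in WT. Gpr17 (chromosome 18, 31942997 to 31949636, minus strand), a receptor of premyelinating cells that is known to hold back their maturation, was at 57.7, 66.2 and 77.6 CPM in STING KO, at 88.5, 97.6 and 99.5 CPM in cGAS KO and at 114, 88.0 and 103 CPM in WT. For both genes every STING KO library was below every WT library and every cGAS KO library, while cGAS KO and WT overlapped. Over 9 libraries they were also the 2 steadiest of the 35 genes within groups, with a pooled SD of 0.13 for Pdgfra and 0.17 for Gpr17 on the log2(CPM + 1) scale, against a median of 0.47 over the 26 oligodendrocyte genes and 0.36 over all genes tested. Over the 6 libraries this did not hold: the SD was 0.16 for Pdgfra and 0.24 for Gpr17, against 0.13 for Lhfpl3, 0.15 for Vcan and a median of 0.19 over all genes.

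Bcas1, an early marker of myelinating cells, was at 144, 124 and 323 CPM in STING KO, at 183, 168 and 171 CPM in cGAS KO and at 231, 172 and 68.5 CPM in WT. Enpp6, a choline phosphodiesterase of newly formed oligodendrocytes, was at 16.95, 57.2 and 27.6 CPM in STING KO, at 27.8, 78.8 and 41.4 CPM in cGAS KO and at 46.0, 30.8 and 43.6 CPM in WT. C1ql1, a secreted C1q-like protein, was at 9.62, 3.34 and 8.21 CPM in STING KO, at 9.27, 13.8 and 10.3 CPM in cGAS KO and at 9.20, 5.25 and 5.22 CPM in WT. Every cGAS KO library of C1ql1 was above every WT library, though cGAS KO replicate 1 and WT replicate 1 were 9.27 and 9.20 CPM. Bcas1 followed the block of myelin genes, with its highest values in STING KO replicate 3 and WT replicate 1.

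Tnr, tenascin-R of the extracellular matrix, was at 178, 321 and 172 CPM in STING KO, at 181, 415 and 269 CPM in cGAS KO and at 203, 239.5 and 579.7 CPM in WT. Vcan, versican, was at 41.8, 83.1 and 46.2 CPM in STING KO, at 45.2, 72.04 and 55.5 CPM in cGAS KO and at 58.1, 52.4 and 80.4 CPM in WT. Both were highest in the library of low complexity in every group. Cspg4 was at 31.5, 43.5 and 28.4 CPM in STING KO, at 30.9, 39.0 and 52.0 CPM in cGAS KO and at 30.8, 28.2 and 46.7 CPM in WT. The range of Lhfpl3, a tetraspan membrane protein, was the narrowest of the 35 genes, at 1.51 times over 9 libraries. It was at 25.5, 38.3 and 26.3 CPM in STING KO, at 26.7, 26.8 and 26.7 CPM in cGAS KO and at 25.4, 31.8 and 26.9 CPM in WT. Pericytes also express Cspg4, and fibroblasts Pdgfra and Vcan.

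**Figure D3:**
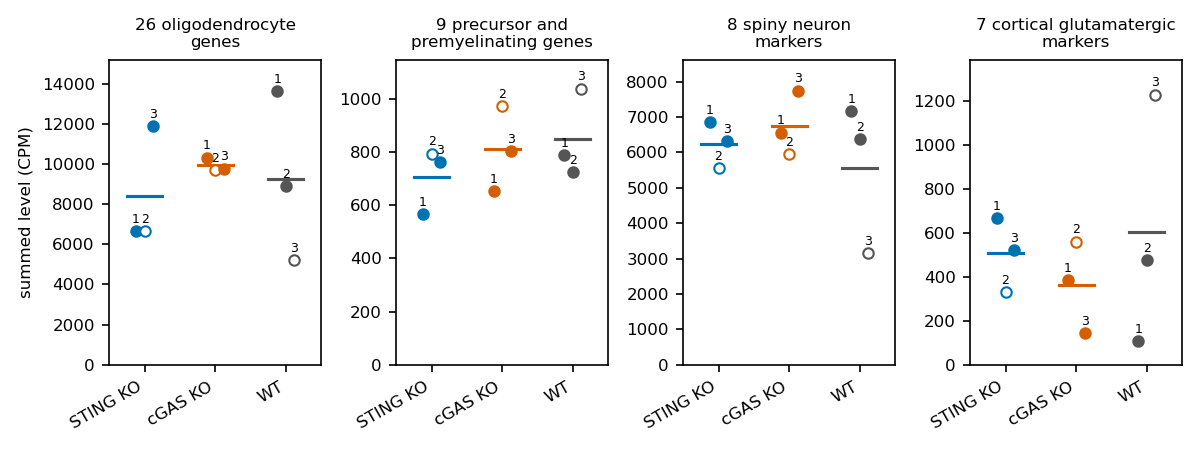
Summed levels in CPM by library for the 26 oligodendrocyte genes, the 9 precursor and premyelinating genes, 8 spiny neuron markers and 7 cortical glutamatergic markers; numbers are replicates, open points are libraries of low complexity and lines are group means. The oligodendrocyte sum runs from 5206 to 13646 CPM within WT and from 9707 to 10323 CPM within cGAS KO.

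In STING KO against WT, edgeR's quasi-likelihood test with Benjamini-Hochberg adjustment called 0 of the 35 genes, and 0 of all 17821 genes tested (0.0%). DESeq2 and limma-voom also called 0 of the 35. At an unadjusted p under 0.05, 2 of 35 were lower (Pdgfra and Gpr17) and 0 higher, against 0.735% lower and 0.898% higher over all genes tested. The same 2 genes were those whose libraries did not overlap, against 3.68% of all genes lower and 3.41% higher without overlap. Gpr17 had a log2 fold change of -0.60 (SE 0.17, unadjusted p = 0.00625, adjusted p = 0.9999 by edgeR's quasi-likelihood test), and Pdgfra one of -0.44 (SE 0.16, unadjusted p = 0.0204, adjusted p = 0.9999). For Gpr17 the value lay between -0.72 and -0.50 under 17 alternatives, with an unadjusted p under 0.05 in all 17 (0.00203 to 0.0336) and an adjusted p of 0.660 to 1. For Pdgfra it lay between -0.48 and -0.38, with an unadjusted p under 0.05 in 15 of 17. The exceptions in edgeR's quasi-likelihood test were an unadjusted p of 0.0755 without STING KO replicate 3 and of 0.058 without a filter on low counts.

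Other genes with small p in this comparison were less clear. Ugt8a had a log2 fold change of -0.53 (SE 0.29), Gpr37 of 0.39 (SE 0.24) and Tnr of -0.61 (SE 0.46), none at an unadjusted p under 0.05, and Tnr turned to 0.01 without WT replicate 3. Mbp had -0.10 (SE 0.49) and turned to 0.42 without WT replicate 1 and to 0.16 without STING KO replicate 2, and Mobp had -0.22 (SE 0.39) and turned to 0.12 without WT replicate 1. The median over the 26 oligodendrocyte genes was -0.01, with 12 of 26 positive, beside -0.00 over all genes tested. It turned to 0.33 without WT replicate 1, to 0.02 without STING KO replicate 1 and to 0.01 without STING KO replicate 2, and was -0.34 without STING KO replicate 3 and -0.32 without WT replicate 3. The median of the 9 precursor and premyelinating genes was -0.16, with 3 of 9 positive, and it was 0.02 without STING KO replicate 1 and -0.44 without STING KO replicate 2. By role, 3 of 12 sheath genes, 4 of 5 transcription factors, 1 of 3 lipid genes and 4 of 6 other oligodendrocyte genes were positive.

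Over the 6 libraries without low complexity 2 libraries face 2. There 7 of 35 did not overlap and were lower in STING KO (Ugt8a, Trf, Pdgfra, Vcan, Tnr, Gpr17 and Enpp6), which is 20% of them, against 23.3% of all 17657 genes tested, and 0 of 35 were higher without overlap, against 24.4%. Of the 35, 5 were lower at an unadjusted p under 0.05 (Ugt8a, Trf, Pdgfra, Gpr17 and Enpp6), against 2.89% of all genes, with 0 of 35 higher, against 4.02%. Ugt8a had a log2 fold change of -0.83 (SE 0.21, unadjusted p = 0.00364, adjusted p = 0.558 by edgeR's quasi-likelihood test). Enpp6 had -0.79, against -0.24 over 9 libraries, where STING KO replicate 2 held its highest STING KO value. Trf had -0.67, against -0.42 over 9 libraries, and 6 of 6 choroid plexus markers were lower there at an unadjusted p under 0.05, with a median of -3.67. Their part in the Trf value was not tested, nor was that of the exons Trf shares with Gm20425. Gpr17 and Pdgfra had -0.58 and -0.38. edgeR called 0 of the 35 and 4 of all genes (0.0227%), and the median was -0.23 for the 26 oligodendrocyte genes, with 8 of 26 positive, and -0.33 for the 9 precursor and premyelinating genes. In the same fit 7 of 7 cortical glutamatergic markers were positive (median 0.48), and 1 of 8 spiny neuron markers (median -0.10). The part of the tissue sampled in these medians was not tested.

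Markers of cells that share these genes were compared for the same groups. Summed levels of 5 fibroblast markers were 28.6, 24.3 and 20.5 CPM in STING KO, 28.7, 21.4 and 38.2 CPM in cGAS KO and 35.04, 32.9 and 30.6 CPM in WT. By this sum every STING KO library was below every WT library, but taken singly 0 of the 5 markers were lower without overlap. For STING KO over WT their median was -0.40 on the log2 scale, with 4 of 5 negative, and their part in the Pdgfra values was not tested. The most abundant of them, Col1a2, was at 14.3, 11.4 and 9.10 CPM in STING KO, at 13.5, 10.7 and 17.7 CPM in cGAS KO and at 16.01, 14.3 and 16.6 CPM in WT. Pericyte markers summed to 207 to 273 CPM in STING KO and 254 to 287 CPM in WT. Gpr17 shares 188 bases, 3.62% of its exons, with Lims2 on the opposite strand, and Lims2 was at 13.2, 10.5 and 13.01 CPM in STING KO, at 19.5, 12.1 and 16.2 CPM in cGAS KO and at 22.6, 15.9 and 8.05 CPM in WT. The part of Lims2 reads in the Gpr17 counts was not tested.

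**Figure D4:**
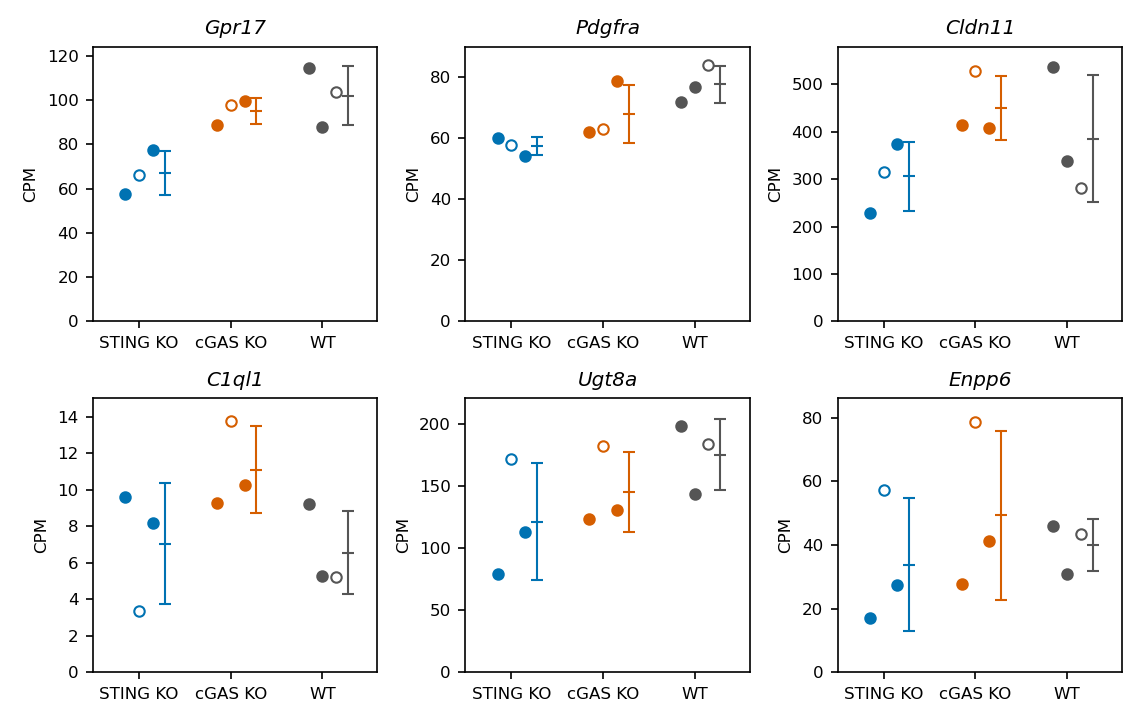
CPM by library for 6 genes (Gpr17, Pdgfra, Cldn11, C1ql1, Ugt8a and Enpp6) in STING KO, cGAS KO and WT, with the mean and SD of 3 libraries beside the points and open points for libraries of low complexity. All 3 STING KO libraries lie below all WT and cGAS KO libraries for Gpr17 (57.7 to 77.6 CPM) and Pdgfra (54.2 to 60.04 CPM), while for Ugt8a and Enpp6 the open points overlap the other groups.

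STING KO against cGAS KO uses the same STING KO libraries as the comparison with WT, so the 2 sets of values are not independent and are given side by side. edgeR's quasi-likelihood test with Benjamini-Hochberg adjustment called 0 of the 35 genes and 0 of all genes (0.0%), and DESeq2 and limma-voom also called 0 of the 35. At an unadjusted p under 0.05, 1 of 35 was lower (Gpr17) and 0 higher, against 0.623% lower and 0.825% higher over all genes. Libraries did not overlap for 3 of 35, all lower in STING KO (Cldn11, Pdgfra and Gpr17), against 3.72% of all genes. Gpr17 had a log2 fold change of -0.50 (SE 0.17, unadjusted p = 0.0161 by edgeR, adjusted p = 1.0), against -0.60 in STING KO against WT. Its unadjusted p was under 0.05 in 15 of 17 alternatives, and was 0.0713 without STING KO replicate 1 and 0.0508 without cGAS KO replicate 3. Pdgfra had -0.25 (SE 0.16), Cldn11 -0.56 (SE 0.28), Hapln2 0.65 (SE 0.35) and C1ql1 -0.65 (SE 0.41), each with an unadjusted p over 0.05.

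The medians in this comparison were below that of all genes. It was -0.18 for the 26 oligodendrocyte genes, with 7 of 26 positive, and -0.25 for the 9 precursor and premyelinating genes, with 2 of 9 positive, beside 0.01 over all genes tested. Of 12 sheath genes 1 was positive, Hapln2. Mbp had -0.15 and turned to 0.12 without STING KO replicate 2 and to 0.03 without cGAS KO replicate 1, and Mobp had -0.33. Without cGAS KO replicate 2 the median of the 26 genes was -0.05 and that of the 9 genes -0.03, and without STING KO replicate 1 the median of the 26 genes was -0.02. Over the 6 libraries the median was -0.03 for the 26 oligodendrocyte genes, with 12 of 26 positive, and -0.30 for the 9 others, with 1 of 9 positive. In that fit 6 of 7 cortical glutamatergic markers were positive (median 1.47), and 2 of 8 spiny neuron markers (median -0.09). Over the same 6 libraries 7 of 35 did not overlap and were lower in STING KO (Cldn11, Ugt8a, Pdgfra, Lhfpl3, Tnr, Gpr17 and Enpp6), against 15.3% of all genes, and 1 was higher (Hapln2), against 16.5% of all genes. At an unadjusted p under 0.05 there was 1 lower (Gpr17), against 1.7% of all genes, and 1 higher (Hapln2), against 1.99%, while edgeR called 0 of the 35 and 3 of all genes (0.017%).

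In cGAS KO against WT, which shares its WT libraries with the first comparison, edgeR's quasi-likelihood test with Benjamini-Hochberg adjustment called 0 of the 35 genes and 0 of all genes (0.0%), and DESeq2 and limma-voom called 0 of the 35. At an unadjusted p under 0.05 it was 0 of 35 in both directions, against 1.04% higher and 0.982% lower over all genes. C1ql1 was the 1 gene of 35 whose libraries did not overlap, higher in cGAS KO, against 4.01% of all genes (3.98% lower), with a log2 fold change of 0.76 (SE 0.41, unadjusted p = 0.0958 by edgeR). Next by p were Gpr37 (0.44, SE 0.24), Pllp (0.47, SE 0.30), Myrf (0.38, SE 0.29) and Pdgfra (-0.19, SE 0.16). Mbp had 0.05 and Mobp 0.10, and these turned to -0.34 and -0.18 without WT replicate 3. Without cGAS KO replicate 1 Mbp was at -0.13.

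Of the 26 oligodendrocyte genes 20 were on the positive side in cGAS KO against WT, with a median log2 fold change of 0.18, beside -0.01 over all genes, and all 5 transcription factors were among them. This direction turned with the library left out: the median was -0.05 without WT replicate 3 and 0.50 without WT replicate 1, and over the 6 libraries it was -0.18 with 6 of 26 positive. The median of the 9 precursor and premyelinating genes was -0.07 with 4 of 9 positive, and -0.10 over 6 libraries. It turned positive without cGAS KO replicate 1 (0.01), WT replicate 2 (0.02) or WT replicate 3 (0.06), and was 0.00 without WT replicate 1. Over the 6 libraries Cspg4 and C1ql1 did not overlap and were higher in cGAS KO, against 14.4% of all genes, and Ugt8a, Aspa and Car2 were lower, against 15%. At an unadjusted p under 0.05 there were 0 of 35, against 2.44% of all genes higher and 1.77% lower, while edgeR called 0 of the 35 and 0 of all genes.

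**Figure D5:**
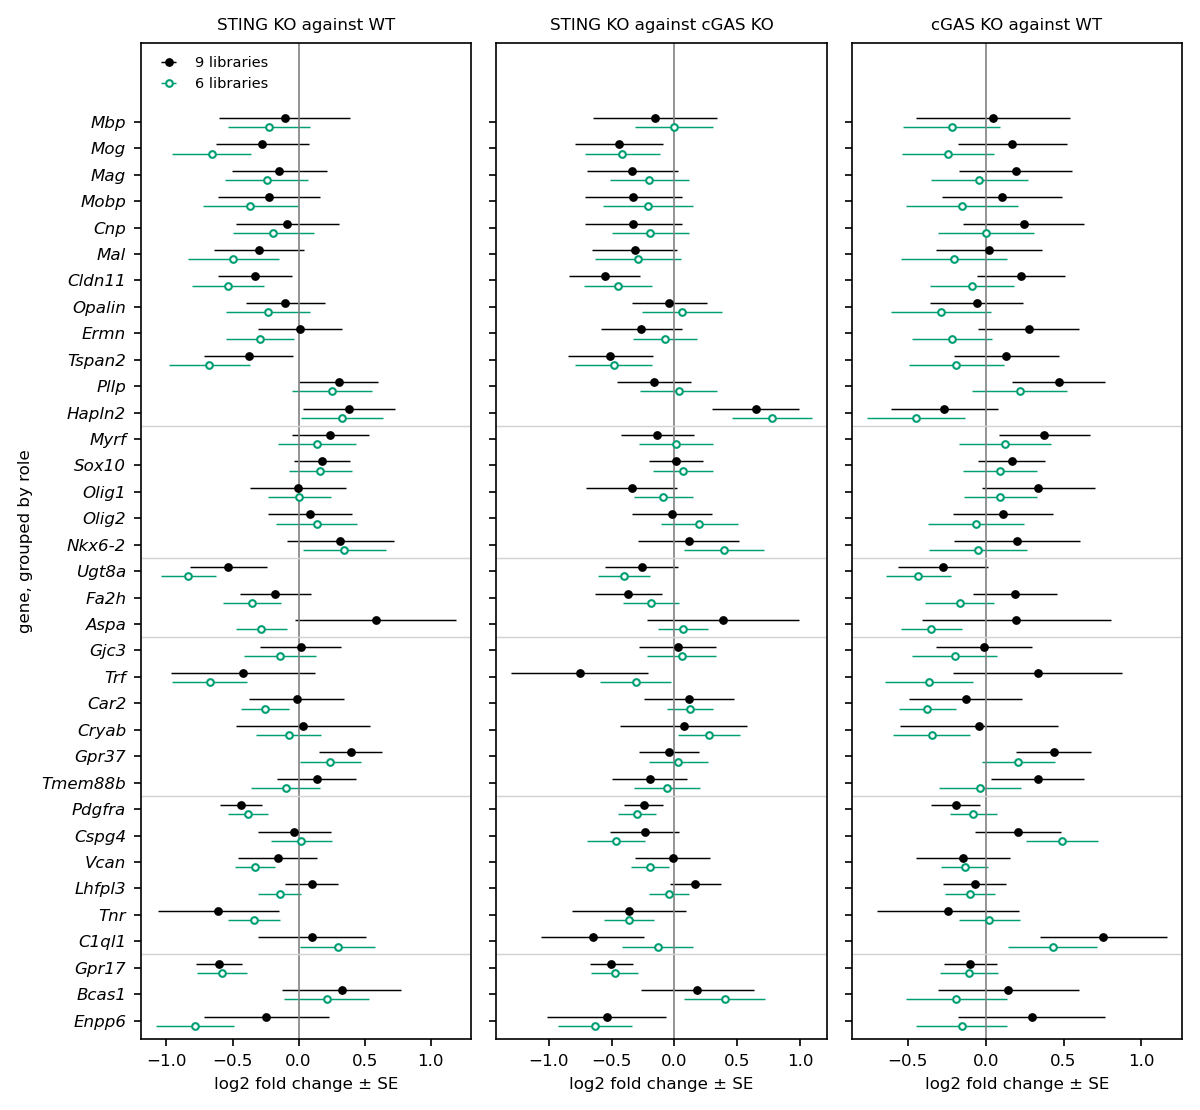
Log2 fold change ± SE of each of the 35 genes from edgeR in the 3 comparisons, in black over 9 libraries and in green over the 6 libraries without low complexity, with genes in rows by role. Gpr17 and Pdgfra stand left of 0 in both fits of STING KO against WT, and most sheath genes of cGAS KO against WT are right of 0 in black and left of 0 in green.

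The libraries of low complexity differed from the other 6 in a way that went partly with annotated exon length. For 15 of the 35 genes their mean was above that of the other 6 libraries, and these genes had a median annotated exon length of 5954 bases. For the other 20 it was lower, and their median length was 2654 bases. The ranges overlapped, at 3213 to 14462 bases for the 15 and 1473 to 8469 bases for the 20, where Mbp was the longest. Over all genes tested the corresponding median lengths were 5294 and 3205 bases. The ratio was 2.70 for Aspa, 2.12 for Tnr, 1.89 for Enpp6 and 1.57 for Vcan, and 0.47 for Cryab, 0.51 for Mbp and 0.59 for Bcas1. By group, 8 of 26 oligodendrocyte genes and 7 of 9 precursor and premyelinating genes were above 1, and the sum of the 26 genes divided by the sum of the 9 genes was 11.8, 8.39 and 15.6 in STING KO, 15.8, 9.97 and 12.1 in cGAS KO and 17.3, 12.3 and 5.01 in WT. The lowest value in each group belonged to the library of low complexity, so this ratio was not compared between genotypes. Leaving these libraries out lowered the median SD within groups to 0.40 for the 26 genes, to 0.25 for the 9 genes and to 0.19 over all genes tested.

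Genes of the same cells outside the 35 were also compared. Of 27 further oligodendrocyte genes, 0 were called by edgeR in any comparison. In STING KO against WT 16 of 27 were positive (median 0.17), with Il33, an alarmin cytokine, higher at an unadjusted p under 0.05, against 0.898% of all genes higher. Over the 6 libraries this turned to 11 of 27 (median -0.09), with Enpp2 and Klk6 lower and Il33 higher at an unadjusted p under 0.05. The shares over all genes there were 2.89% lower and 4.02% higher. Il33 was at 38.2, 51.2 and 57.6 CPM in STING KO, at 26.9, 36.8 and 39.8 CPM in cGAS KO and at 25.9, 34.1 and 19.2 CPM in WT. In STING KO against cGAS KO 8 of 27 were positive (median -0.15), against 13 of 27 over the 6 libraries (median -0.02). Gsn, an actin-severing protein, was lower at an unadjusted p under 0.05, against 0.623% of all genes lower over 9 libraries and 1.7% over 6. It was at 111, 110.4 and 146 CPM in STING KO, at 184, 241 and 222 CPM in cGAS KO and at 252, 139 and 99.4 CPM in WT. In cGAS KO against WT 25 of 27 were positive (median 0.26), and 13 of 27 over the 6 libraries (median -0.01). There too Enpp2 was lower at an unadjusted p under 0.05. Enpp2 peaked in WT replicate 1, with 1638 CPM, followed by STING KO replicate 2, with 643 CPM. The same libraries held the highest and next highest choroid plexus sums, of 2728 and 457 CPM. Elsewhere Enpp2 ranged from 202 to 341 CPM. Any share of choroid plexus in the Enpp2 values was not tested. Of 9 further precursor genes, 3 were positive in STING KO against WT (median -0.16), 3 in STING KO against cGAS KO (median -0.11) and 5 in cGAS KO against WT (median 0.11), with 0 called by edgeR and 0 at an unadjusted p under 0.05 in each. Over the 6 libraries the direction in STING KO against WT turned, with 6 of 9 positive (median 0.02) and Cspg5 higher at an unadjusted p under 0.05, against 4.02% of all genes higher.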

How the data were processed

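Per the labels' protocols, 9 striatum libraries of polyadenylated RNA were read in pairs by Illumina HiSeq. For each library the authors deposited raw counts by gene, made with HISAT2 and featureCounts on mm10, per the submitters' processing notes. No source at hand gives versions, annotation or strand setting, so genes with overlapping or antisense partners are uncertain. Symbols, positions and exon lengths came from GENCODE M21 on GRCm38, which matched 54495 of 54532 gene IDs.

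Differences in counts were tested by edgeR 4.0.16 under R 4.3.3 (quasi-likelihood F test, all 9 libraries in 1 fit, TMM factors of 0.934 to 1.05, genes kept by filterByExpr, threshold 0.05 on Benjamini-Hochberg values over all genes tested). The method was tested on simulated counts. SEs of log2 fold changes were derived from the fold changes and their F statistics. CPM are TMM-normalized, and a level per kb divides CPM by annotated exon length. The biological coefficient of variation was 38.8% over 9 libraries and 17.2% over 6. At these depths 3 counts are 0.141 to 0.212 CPM, and such floors cover counting error only. By chi-square, replicates of each group differed by more than sampling noise.

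The genes and lists were chosen with earlier results of these data known, so counts and medians of lists are descriptions with no test. All 35 genes could be named; values in every library were given for the 2 with the highest level per kb in each role, for those whose groups did not overlap in either set of libraries and for the 5 with the smallest p in each comparison. Gsn, Il33, Enpp2, Klk6, Cspg5 and Col1a2 were named because a count or level turned on them, after their values were seen. Alternatives were DESeq2 1.42.0, limma-voom (limma 3.58.1), other scalings and filters, only the 6 libraries of the groups compared, the replicate number as a block, low complexity as a covariate, no libraries of low complexity, and each library left out. Promoters are RefSeq windows of GRCm38.p6. Protein sequences were not used here.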

Additional observations from a re-analysis of the deposited data

How the results depend on the processing

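Under all alternatives 0 of the 35 genes were called in any comparison, by edgeR, DESeq2 or limma-voom. The count over all genes, 0 in each main comparison, was 10 in STING KO against WT, 8 in STING KO against cGAS KO and 1 in cGAS KO against WT by DESeq2. In STING KO against WT and STING KO against cGAS KO it was 4 and 4 with no filter on low counts, 1 and 1 with low complexity as a covariate, and 4 and 3 without the 3 libraries of low complexity. Leaving out each library, the median of the 9 precursor and premyelinating genes ran from -0.44 to 0.024 in STING KO against WT and from -0.40 to -0.035 in STING KO against cGAS KO. Directions of single genes that turned were all of genes that were not called. In STING KO against WT, Mbp was 0.035 by limma-voom and ran from -0.52 to 0.42 with each library left out, Mobp from -0.68 to 0.12, Enpp6 from -0.84 to 0.077, Trf from -0.87 to 0.015 and Tnr from -0.95 to 0.012. In STING KO against cGAS KO, Mbp ran from -0.57 to 0.12. In cGAS KO against WT, Mbp was -0.011 with library totals alone and -0.22 without the libraries of low complexity, and ran from -0.34 to 0.57 with each library left out. Mobp was -0.15 without the libraries of low complexity and ran from -0.18 to 0.45. Over single genes 376 values kept their direction and side of the threshold and 15 turned. The causes were not tested.

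Nothing in the labels says that the replicate numbers pair the libraries. Deviations of same-numbered libraries from their group means had correlations of -0.45 to 0.50 across genes. For cGAS KO replicate 3 the value was 0.06 with STING KO replicate 3 and -0.19 with WT replicate 3. The libraries of low complexity, which do not all share a number, were at 0.47 to 0.53 with one another. These correlations therefore cannot decide whether the numbers pair the libraries. With the replicate number as a block edgeR called 0 of the 35 and 0 of all genes in each comparison, and Gpr17 had a log2 fold change of -0.61 in STING KO against WT. With 3 libraries a group and 38.8% variation between replicates, small differences were not detectable here.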
